A study of Homo sapiens with 16 samples.

Results

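The cytosolic ribosomal protein genes are described here across 4 conditions of a human breast cell line. They were chosen by symbol (RPL or RPS with a number and at most a closing A, X or L, the stalk genes RPLP0 to RPLP2, and RPSA) and by at least 100 counts in every library. This gave 79 genes, 47 of the large and 32 of the small ribosomal subunit, on 21 chromosomes, out of 78894 genes in the deposited count table and 42760 with a symbol. In all, 81 genes matched by symbol. The 2 left out were RPL10L, with 0 counts, and RPL3L, with 2 counts over all 16 libraries. The members closest to the limit were RPL39L, with 244 counts in its lowest library, RPS28 with 879 and RPS27L with 2312. All 79 passed the low-count filter of the test, so no member was lost there.

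The cells were MCF10DCIS.com, a premalignant line of the MCF10A family that forms growths resembling ductal carcinoma in situ. Each group came from the same PCSK5-/- clone, made with Cas9 and sorted into medium with GDF11, to which a tetracycline-regulated, V5-tagged PCSK5 allele had been returned. The PCSK5 product is a convertase that cuts secreted precursor proteins, and GDF11 belongs to the TGF-beta family of signalling ligands. WT carried the wildtype allele, M452I and T288P carried the alleles of those names, and T288P+GDF11 was the T288P line given 250 ng/ml recombinant mature GDF11 throughout. Every group received 1 µg/ml doxycycline from day 4, grew in 3 dimensions on matrigel and was harvested on day 8. Each allele was thus 1 polyclonal line on 1 clone, and the replicates were 4 wells per group, so p-values measure only the spread between wells. Whether an allele or the line that carries it goes with a difference cannot be told apart.

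The libraries held 28.5 to 50.8 M counts and 21777 to 25335 detected genes. PCSK5 itself ranged from 25.3 to 66.8 CPM (a gene's counts for each M counts in the library, after TMM scaling) over all wells, and since the returned allele gives the same transcript this does not check the knockout. The marker sums that follow are CPM by library totals, without TMM scaling. The 10 epithelial markers summed to 13300 to 24300 CPM. The 5 immune markers summed to at most 1.42 CPM and the 2 liver markers to at most 0.0669 CPM, while the 4 endothelial markers reached 3.91 CPM and the 6 stromal markers 9.14 CPM, both in T288P+GDF11. APOA1, COL3A1 and LUM were at 0 in every well.

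Ribosomal proteins join the ribosomal RNAs into a small (40S) subunit, which reads the messenger RNA, and a large (60S) subunit, which forms the peptide bond. Their messenger RNAs, with those of several elongation factors, are known as TOP mRNAs: they begin with a C followed by an unbroken run of pyrimidines, the 5′ terminal oligopyrimidine tract, through which mTOR and the RNA-binding protein LARP1 control their translation and stability. Ribosome production takes a large part of the transcripts of a growing epithelial cell and is tied to growth signals, and some ribosomal proteins also act outside the ribosome.

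The start of transcription is shown for members described below, with and without a tract, since the tract at that place defines the TOP class. The windows are from RefSeq (GRCh38.p14), which held a promoter entry for 63 of the 79 genes. Each has 30 bases, 15 of them before the annotated start base, and capitals mark the run of C or T that covers the start base, as far as the window shows it.
RPLP0 (chr12:120201097-120201126, minus strand): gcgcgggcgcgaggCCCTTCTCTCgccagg
RPL41 (chr12:56116618-56116647, plus strand): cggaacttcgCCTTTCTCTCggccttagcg
RPL39 (chrX:119791616-119791645, minus strand): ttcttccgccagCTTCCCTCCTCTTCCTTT
RPL13A (chr19:49487593-49487622, plus strand): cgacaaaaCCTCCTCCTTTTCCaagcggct
RPS6 (chr9:19380222-19380251, minus strand): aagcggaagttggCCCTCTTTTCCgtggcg
RPS14 (chr5:150449725-150449754, minus strand): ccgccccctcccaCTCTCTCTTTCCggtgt
RPS27 (chr1:153990747-153990776, plus strand): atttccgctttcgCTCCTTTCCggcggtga
Other members had a short run or none at the annotated start, while EEF1A1, the TOP-type gene of elongation factor 1A, had one.
RPL12 (chr9:127451392-127451421, minus strand): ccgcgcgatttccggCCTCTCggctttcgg
RPL4 (chr15:66504841-66504870, minus strand): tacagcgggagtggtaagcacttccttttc
RPL11 (chr1:23691764-23691793, plus strand): cgcctcctggcccataaggccctcggccgg
RPS26 (chr12:56041903-56041932, plus strand): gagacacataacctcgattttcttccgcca
RPS28 (chr19:8321481-8321510, plus strand): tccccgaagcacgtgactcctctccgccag
RPS27L (chr15:63157463-63157492, minus strand): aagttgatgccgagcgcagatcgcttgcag
RPS29 (chr14:49598696-49598725, minus strand): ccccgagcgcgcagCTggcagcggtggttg
EEF1A1 (chr6:73521018-73521047, minus strand): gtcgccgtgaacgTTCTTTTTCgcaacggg
A run of 8 or more C or T (any order) over the start base was present in 40 of the 63 genes (63.5%), against 4.8% of all 27305 promoters in the table and 5.4% of the 11172 that belong to tested genes. The start base was C in 46 of the 63 (73.0%, against 15% of all promoters and 12.4% of those of tested genes). The median run was 10 bases and the longest, in RPL7A, 25. Over the 300 bases of each entry, on both strands, CCGGAAG was found in 34.9% of the members, 10.7% of all promoters and 18.8% of those of tested genes. AAGATGGC was found in 9.52%, 3.03% and 5.24%, GGGCGG in 55.6%, 44.6% and 68.8%, and TATAAA in 3.17%, 7.17% and 3.78%. GGGCGG was thus more frequent in the members than in all promoters and less frequent than in those of tested genes. These are matches of letters at 1 annotated start per gene.

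The members differed widely in level. The mean over all 16 wells was 1080 CPM for the median member, and the range ran from 9.69 CPM for RPL39L to 5920 CPM for RPL4, a protein that lines the exit tunnel. Per kb of the shortest principal transcript in GENCODE 29, the highest were RPL41 (5860 CPM per kb), which encodes a very short basic peptide of the 60S subunit, RPL12 (4630) and RPS14 (4610), and the median was 1460. The lowest were RPL39L (14.8), RPS27L (16.1) and RPS28 (32.3). RPS27L carries an annotated transcript of 6434 bases, RPL37 one of 7686, and for RPS28 62.5% of the counts of the gene and its processed pseudogenes stood with the pseudogenes, so these 3 are understated per kb. The same holds for RPL27A (4916 bases, 268 CPM per kb), RPL37A (3647 bases, 346) and RPS23 (3437 bases, 311), and levels per kb compare genes only as far as the annotated length is the transcribed one. That pseudogene share was 0.445% for the median member and above 10% for 8 of them: RPS28, RPL36A (26.0%), RPL21 (22.9%), RPL9 (21.7%), RPS27 (20.5%), RPS7 (17.7%), RPL7 (17.1%) and RPS2 (12.6%). RPS10 shares 39.4% of its exon bases with the readthrough gene RPS10-NUDT3 on the same strand, and RPL10 34.2% with DNASE1L1 on the opposite strand, so their counts are uncertain.

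Together the 79 genes took 9.27% to 13% of the counts of a library. In WT the shares were 10.1%, 11.2%, 10.2% and 11.7% for replicates 1 to 4 (mean 10.8% ± 0.788, SD, n = 4). In M452I they were 12.9%, 12.7%, 13% and 9.27% (12% ± 1.8). In T288P they were 12.2%, 11.0%, 10.6% and 11.0% (11.2% ± 0.686), and in T288P+GDF11 10.7%, 12.5%, 11.5% and 10.9% (11.4% ± 0.824). The 4 groups overlapped. M452I held both the 3 highest wells and the lowest one, and without that well and T288P replicate 1 the order of the group means was the same, with M452I at 12.9% ± 0.169 and T288P at 10.9% ± 0.219 (n = 3 each).

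**Figure D1:**
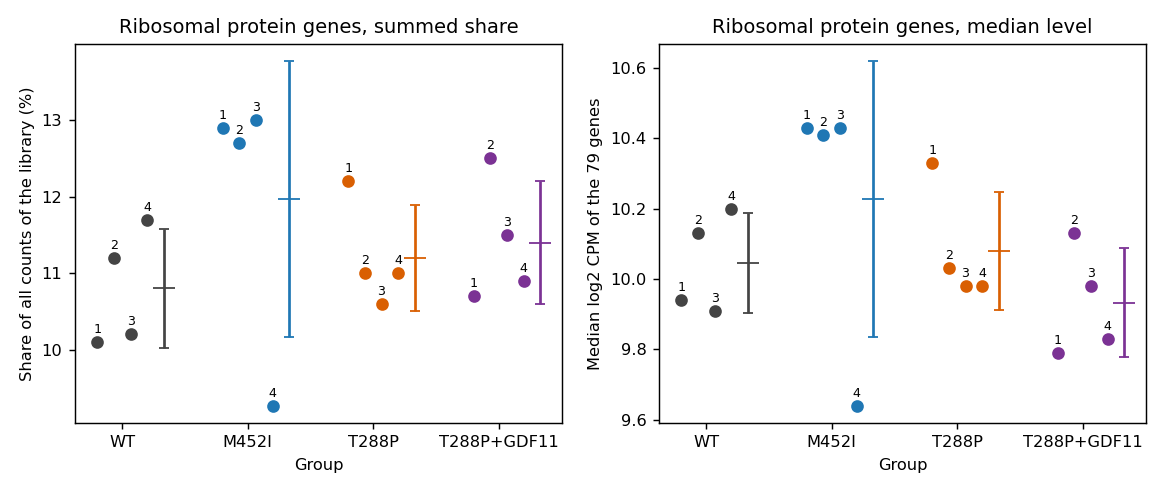
Left, the summed share of counts of the 79 ribosomal protein genes (y axis, %) in each well by group (x axis, points numbered by replicate, with mean ± SD of 4 wells); right, their median log2 CPM. M452I replicate 4 is the lowest well on both axes (9.27% and 9.64) while the other 3 M452I wells are the highest (12.7% to 13%).

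The members moved together from well to well. Their median log2 CPM in a well was 9.94, 10.13, 9.91 and 10.20 in WT, 10.43, 10.41, 10.43 and 9.64 in M452I, 10.33, 10.03, 9.98 and 9.98 in T288P, and 9.79, 10.13, 9.98 and 9.83 in T288P+GDF11. Within a group the wells thus spanned 0.29, 0.79, 0.35 and 0.34 log2 units, more than any difference between group medians given below except where M452I replicate 4 is left out. The within-group SD of a single member was 0.25 log2 units at the median (0.17 for RPL39L to 0.392 for RPS28), close to the 0.267 of all 16790 genes tested. Once the members' median of each well was subtracted, the median SD of a member was 0.0401, and 71 of the 79 were under 0.1. The 8 others were RPL39L (0.278), RPS28 (0.201), RPS29 (0.126), RPS10 (0.111), RPS26 (0.110), RPL36 (0.108), RPL13 (0.105) and RPS21 (0.103). Subtracting a median taken from the same genes lowers the SD by construction, so this is a description.

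M452I replicate 4 and T288P replicate 1 stood apart, in opposite directions. Both wells were known from earlier results to do so, and their values are given as a description. In M452I replicate 4 the median member was 0.84 log2 units below the mean of the other 3 M452I wells, or 1.78-fold lower, and the median of all genes differed by 0.073. This well was the lowest of its group for 78 of the 79 members, as it was for 35% of all genes. The exception was RPL39L. In T288P replicate 1 the median member was 0.36 log2 units above the other T288P wells, or 1.29-fold higher, and the well was the highest of its group for 78 of 79, against 31.4% of all genes. RPL39L was again the exception. Scaled by library totals alone, the median member stood at -0.51 in the former well and 0.19 in the latter, but the median of all genes then stood at 0.39 and -0.17.

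Both subunits took part to a similar extent. In M452I replicate 4 the median was -0.81 for the 47 large-subunit and -0.85 for the 32 small-subunit genes, and in T288P replicate 1 it was 0.34 and 0.38. The members with the largest shift in M452I replicate 4 were RPS29, a zinc-binding protein of the 40S head (-1.19), RPS21 (-1.10) and RPS28 (-1.10), and those with the smallest were RPL39L (-0.11), RPL14 (-0.65) and RPS15 (-0.65). In T288P replicate 1 the shift was largest for RPS28 (0.76), RPL36 (0.63) and RPS29 (0.57), and among the smallest for RPL39L (-0.05) and RPS15 (0.23). RPS28 and RPS29 were therefore at the far end in both wells. Members with and without a long pyrimidine run over the annotated start had similar median shifts. In M452I replicate 4 the median was -0.84 for the 40 genes with a run of 8 or more pyrimidines. It was -0.86 for the 23 with a shorter run or none. In T288P replicate 1 the medians were 0.38 and 0.34. Only the run over the annotated start base was scored, so the 23 genes are not shown to lack a tract. The run also counts bases before the start, so the 40 are not shown to carry 8 or more pyrimidines in the transcript.

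**Figure D2:**
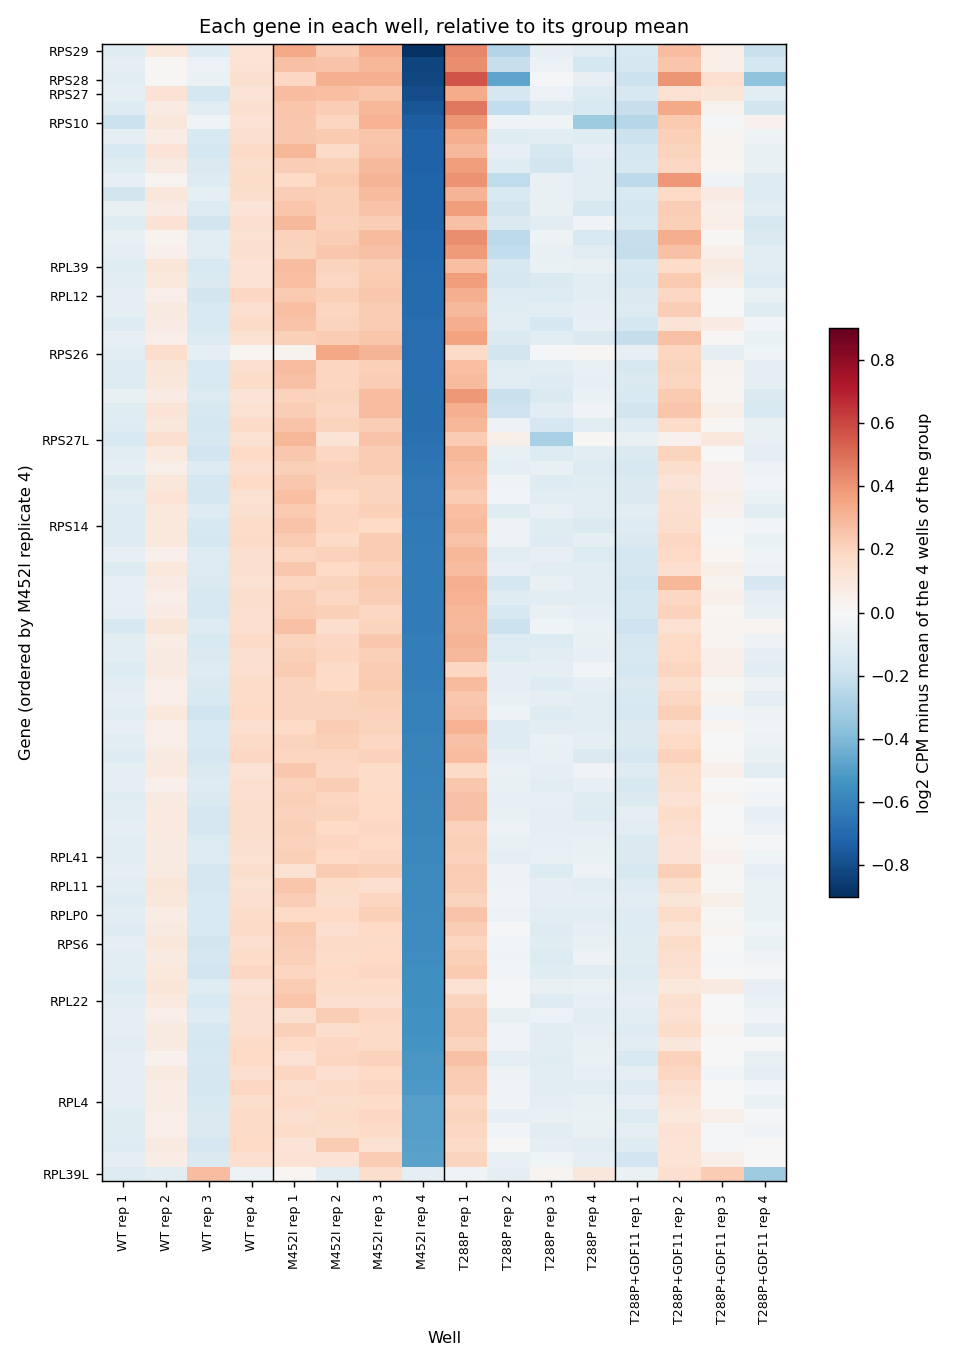
Log2 CPM of each of the 79 genes (rows, ordered by M452I replicate 4, with the genes given well by well in the text labelled) in each of the 16 wells (columns), minus the mean of the 4 wells of its group (colour, blue lower, red higher). The M452I replicate 4 column is blue and the T288P replicate 1 column is red from top to bottom except for RPL39L, the last gene, which is near white in both.

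Smaller shifts of the same kind were seen in the other groups. WT replicate 4 was the highest well of its group for 75 members (26.9% of all genes) and WT replicate 3 the lowest for 67 (26.0%). T288P+GDF11 replicate 2 was the highest for 77 (28.2%) and replicate 1 the lowest for 72 (26.5%). The medians of these shifts against the other wells of the group were 0.2, -0.18, 0.22 and -0.18 log2 units.

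Single genes show the pattern. RPLP0, the base of the stalk that recruits the elongation factors to the 60S subunit, had 4350, 4860, 4220 and 5210 CPM in WT, 5870, 5850, 5990 and 3490 in M452I, 5590, 4510, 4360 and 4380 in T288P, and 4050, 4930, 4420 and 4200 in T288P+GDF11. Apart from M452I replicate 4 every M452I well lay above every well of the other groups, and with it the groups overlapped. RPL12, which sits at the foot of the same stalk, had 2690, 2980, 2540 and 3250 CPM in WT, 3860, 3790, 3890 and 2030 in M452I, 3630, 2670, 2660 and 2700 in T288P, and 2320, 2890, 2540 and 2430 in T288P+GDF11. Its M452I replicate 4 value was the lowest of all 16. The other 2 stalk genes, RPLP1 and RPLP2, had 1500 ± 371 and 391 ± 107 CPM in M452I against 1340 ± 116 and 353 ± 28.6 in WT (SD, n = 4).

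Elsewhere in the large subunit, RPL4 had 5530, 6140, 5350 and 6530 CPM in WT, 7290, 7190, 7240 and 4570 in M452I, 6710, 5780, 5580 and 5630 in T288P, and 5030, 5760, 5310 and 5070 in T288P+GDF11. Its highest wells were again the first 3 of M452I and T288P replicate 1. RPL41 had 2520, 2840, 2470 and 2960 CPM in WT, 3420, 3330, 3340 and 1970 in M452I, 3140, 2560, 2600 and 2610 in T288P, and 2320, 2790, 2610 and 2480 in T288P+GDF11. RPL11, which with RPL5 and the 5S RNA can bind MDM2, had 979, 1130, 943 and 1150 CPM in WT, 1410, 1330, 1320 and 800 in M452I, 1240, 1030, 1010 and 994 in T288P, and 875, 1060, 955 and 908 in T288P+GDF11. RPL5 was shifted by -0.72 in M452I replicate 4 and by 0.3 in T288P replicate 1, and RPL11 by -0.76 and 0.29. The pair moved alike, but so did the members in general (medians -0.84 and 0.36). RPL10, which joins the 60S subunit late in its assembly, and RPL13A, also known for a role in interferon-induced translational control, were at -0.71 and -0.8 in the former well. RPL22 had 742, 846, 722 and 882 CPM in WT, 1040, 971, 975 and 598 in M452I, 908, 783, 729 and 749 in T288P, and 687, 807, 733 and 700 in T288P+GDF11.

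In the small subunit, RPS6, the substrate of the S6 kinases, had 3710, 4240, 3540 and 4400 CPM in WT, 5230, 5060, 5060 and 3040 in M452I, 4610, 3960, 3740 and 3850 in T288P, and 3480, 4190, 3760 and 3600 in T288P+GDF11. RPS14, whose loss of 1 copy is known from the 5q deletion syndrome, had 2290, 2650, 2240 and 2790 CPM in WT, 3570, 3410, 3380 and 1920 in M452I, 3100, 2460, 2360 and 2320 in T288P, and 2190, 2650, 2340 and 2330 in T288P+GDF11. In both, as for RPLP0 and RPL12, the first 3 M452I wells were the highest of all 16 and M452I replicate 4 the lowest. RPS29 had 258, 298, 257 and 304 CPM in WT, 394, 361, 390 and 168 in M452I, 387, 239, 272 and 269 in T288P, and 221, 295, 253 and 212 in T288P+GDF11, so its T288P replicate 1 lay within the range of the 3 upper M452I wells. RPS28 had 40.4, 43.6, 41.4 and 47.6 CPM in WT, 53.4, 58.4, 58.5 and 26.5 in M452I, 61.0, 29.6, 40.6 and 39.1 in T288P, and 30.9, 46.5, 39.3 and 27.5 in T288P+GDF11. Its T288P wells alone spanned 29.6 to 61.0. RPSA, also known as the laminin receptor precursor, RPS27A, made as a fusion with ubiquitin, RPS19, mutated in Diamond-Blackfan anaemia, and RPS4X were shifted by -0.78, -0.92, -0.95 and -0.78 in M452I replicate 4.

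RPS26 and RPS10 left the common pattern in part. RPS26, which lies at the mRNA exit channel, had 477, 573, 486 and 520 CPM in WT, 513, 639, 621 and 312 in M452I, 559, 441, 490 and 500 in T288P, and 416, 498, 414 and 425 in T288P+GDF11. Its M452I replicate 1 lay within the WT range, unlike that of RPS6 or RPS14. RPS10, which is ubiquitylated on collided ribosomes, had 476, 584, 528 and 594 CPM in WT, 754, 729, 794 and 381 in M452I, 708, 527, 526 and 434 in T288P, and 467, 658, 551 and 575 in T288P+GDF11, with T288P replicate 4 below every other T288P well.

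Other genes that the library captured moved with the members in these 2 wells. In M452I replicate 4 the median of all genes tested was 0.073, so the smaller part of them was below the other wells. Of 21 other TOP-type translation genes, 21 were below the other wells in M452I replicate 4 (median -0.61), among them TPT1 (-0.92), EEF1A1 (-0.74) and EEF2 (-0.6), and their median in T288P replicate 1 was 0.24. The 36 nuclear genes of the respiratory chain stood at -0.75 and 0.4, with 36 of 36 below in M452I replicate 4, the 27 proteasome genes at -0.55 and 0.24, with 27 below, and the 77 mitochondrial ribosomal protein genes at -0.37 and 0.18, with 70 below. The 30 ribosome biogenesis genes stood at -0.06 in each, with 18 below in M452I replicate 4, and the 14 genes of the mTOR list at 0.25 and -0.09. The 13 mitochondrially encoded protein genes had a median of 0.21 and -0.18. All genes with a symbol starting with MT- together took 5.03% of the counts in M452I replicate 4 against 3.99% to 4.28% in the other M452I wells. Of 5 nuclear-retained or noncoding RNAs, 3 were below in M452I replicate 4 (median -0.31). The shifts of both wells thus extended beyond the ribosomal protein genes.

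Shifts also varied with transcript length, in M452I replicate 4, in T288P replicate 1 and in other wells. The members are short, with a median principal transcript of 705 bases against 2535 for the tested genes. Among genes that are not members, the median shift in M452I replicate 4 went from -0.26 in quintile 1, the shortest (up to 1280 bases) through -0.08, 0.05 and 0.15 to 0.27 in quintile 5 (from 4666 bases), and in T288P replicate 1 from 0.2 through 0.06, -0.01 and -0.06 to -0.08. The 66 members in quintile 1 stood at -0.84 and 0.37, further out than the medians of the other genes of that quintile. It spans 57 to 1280 bases, so lengths were not matched within it. A slope was not particular to these wells. From quintile 1 to 5 the genes that are not members went from -0.04 to 0.07 in WT replicate 3 and from 0.11 to -0.1 in WT replicate 4. They went from -0.08 to 0.12 in T288P+GDF11 replicate 1 and from 0.15 to -0.21 in T288P+GDF11 replicate 2. Among the members the medians in M452I replicate 4 were -0.93 for the 11 of up to 500 bases, -0.86 for the 27 of 500 to 700, -0.83 for the 20 of 700 to 1000 and -0.78 for the 21 longer ones. The part of length or RNA quality in the shifts was not tested.

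**Figure D3:**
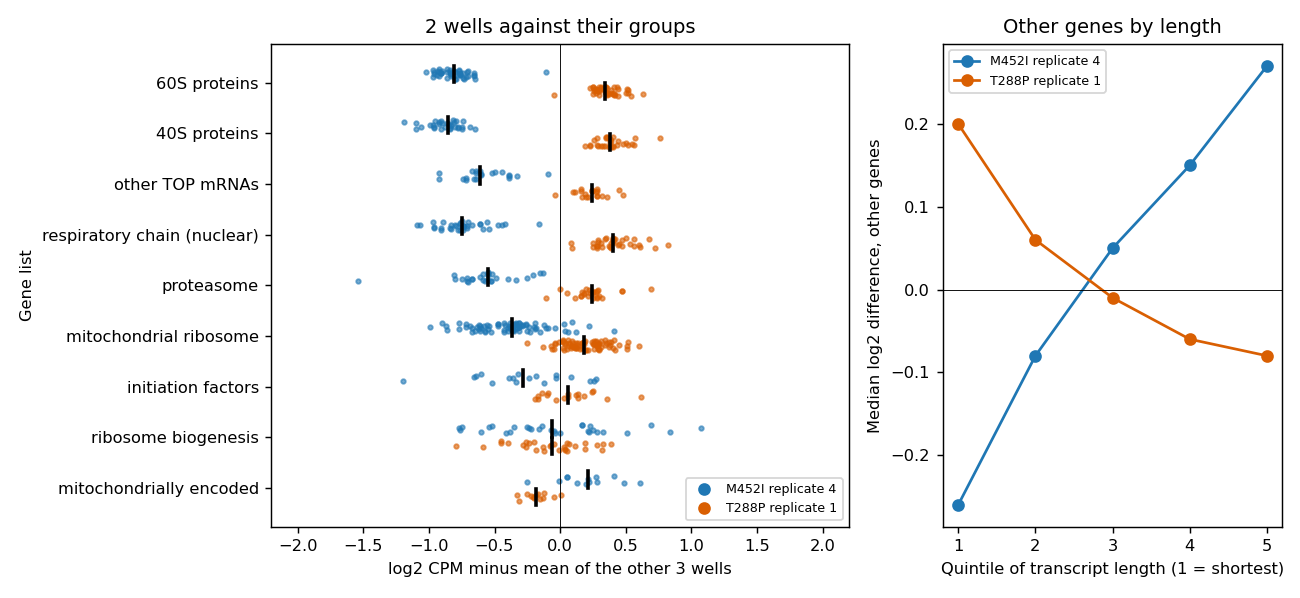
Left, log2 CPM of each gene (points, by gene list on the y axis, black bar at the median) in M452I replicate 4 (blue) and T288P replicate 1 (orange), minus the mean of the other 3 wells of the group (x axis); right, the median of that difference for genes outside the ribosomal set by quintile of transcript length. Of the 9 lists plotted, the ribosomal protein genes lie furthest from 0 in blue (medians -0.81 and -0.85) but not in orange, where the respiratory chain genes (0.4) lie further out (0.34 and 0.38), and the other genes slope in opposite directions in the 2 wells.

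Between M452I and WT, the M452I members were higher on average but no member passed the test. The median log2 fold change was 0.211 (0.02 for RPS26 to 0.30 for RPS14), with a median SE of 0.15, against 0.031 for all genes, and 79 of 79 were above 0, as were 55.4% of all genes. Higher medians were not particular to the members. Respiratory chain genes stood at 0.19, mitochondrial ribosomal protein genes at 0.16, and proteasome and other TOP-type genes at 0.15 each. Ribosome biogenesis genes were at 0.14, initiation factors outside the TOP class at 0.09 and the mTOR list at 0.03. In edgeR's quasi-likelihood test with Benjamini-Hochberg adjustment over the 16790 genes, 0 members were called (0.0238% of all genes were), the smallest adjusted p was 0.819, 0 had an unadjusted p under 0.05 (6.3% of all genes), and DESeq2 and limma-voom also called 0. For 0 members did the M452I wells lie wholly above or below the WT wells (1.78% and 2.31% of all genes). RPLP0 was at 0.19 (SE 0.15), RPS6 at 0.21 (SE 0.14), RPL41 at 0.16 (SE 0.14), RPL11 at 0.21 (SE 0.14), and RPS14 at 0.30 (SE 0.16, adjusted p = 0.819 by edgeR).

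The result depended on M452I replicate 4 and T288P replicate 1. Without M452I replicate 4 the median was 0.379 with 0 called (0.0174% of all genes were called higher) and a smallest adjusted p of 0.0762. Without both wells, 73 of the 79 were called higher in M452I than in WT (2.92% of 17212 genes were), with the same median of 0.379, a 1.3-fold difference, a range of 0.2 to 0.48, a median SE of 0.08 and adjusted p-values from 0.0178 to 0.0462 (edgeR). RPLP0 was then at 0.34 (adjusted p = 0.0209), RPL12 at 0.43, RPS6 at 0.37 and RPS14 at 0.47. The 6 not called were RPL13, RPL14, RPL39L, RPLP1, RPS26 and RPS28, of which RPLP1 was at 0.33 (adjusted p = 0.053) and RPS26 at 0.2. Both wells were picked on these genes' own values and leaving them out lowers the spread used for every gene, so these counts are not independent evidence of a difference between M452I and WT.

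M452I against T288P, which shares the M452I wells, gave a median of 0.189 (0.07 for RPL39L and RPS26 to 0.28 for RPS10), with 79 of 79 above 0 (52.8% of all genes). Scaled by library totals alone the median was 0.091, with 77 above 0 and all genes at -0.06. No member was called (0.00596% of all genes were), 0 had an unadjusted p under 0.05 (2.18%), and DESeq2 and limma-voom called 0. For 0 members were the wells apart in either direction (0.512% of all genes higher and 0.685% lower). Leaving out single wells gave medians from 0.121 (without M452I replicate 1) and 0.122 (without M452I replicate 3) to 0.357 (without M452I replicate 4). Without both wells, 78 of 79 were called higher in M452I (8.88% of all genes), with a median of 0.46 or 1.38-fold, and RPL39L was the exception at 0.08. RPS10 was then at 0.62 and RPS14 at 0.54, and RPL10A had the smallest adjusted p (0.00101, edgeR, log2 fold change 0.58). The caution on the choice of wells holds here too. In the fit of all wells the respiratory chain genes had a median of 0.18, near that of the members. Proteasome and other TOP-type genes were at 0.13 each and mitochondrial ribosomal protein genes at 0.09. Initiation factors outside the TOP class were at 0.07, ribosome biogenesis genes at 0.04 and the mTOR list at -0.01.

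T288P and WT lay close together. The median was 0.019 (-0.07 for RPL14 to 0.15 for RPL39L, median SE 0.15), against 0.017 for all genes, with 64 members above and 15 below 0 (53.4% of all genes were above). The split was 53 and 26 with RLE scaling, and 76 and 3 with library totals (median 0.059, all genes 0.061). No member was called (0.0417% of all genes were), the smallest adjusted p was 0.827 by edgeR, 0 had an unadjusted p under 0.05 (8.49%), DESeq2 and limma-voom called 0, and wells were apart for 0 (2.1% of all genes higher and 2.94% lower). The sign of the median turned when T288P replicate 1 (-0.071), WT replicate 3 (-0.022) or WT replicate 1 (-0.009) was left out, and it reached 0.076 without WT replicate 4. Without both M452I replicate 4 and T288P replicate 1 the median was -0.08 and 0 were called (1.69% of all genes higher and 2.36% lower). RPL37 and RPL38, both small 60S proteins, were at 0.13 and 0.10, and neither was called.

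With GDF11, the members' median was below that of the untreated T288P line, and no member passed the test. T288P+GDF11 against T288P gave a median of -0.14 (-0.25 for RPS29 and RPLP2 to 0.34 for RPL39L, smallest adjusted p = 0.104 by edgeR), with 74 of 79 below and 5 above 0 (48.5% of all genes were above). Among the members 0 were called (12.9% of all genes were), 1 (RPL39L) had an unadjusted p under 0.05 (28.3% of all genes), DESeq2 and limma-voom called 0, and wells were apart for 0 (10.2% of all genes higher and 11.8% lower). Without T288P replicate 1 the median was -0.027, and without both outlying wells it was -0.041 with 0 called (5.32% of all genes higher and 8.37% lower). Scaled by library totals alone it was 0.006, with 44 members above 0, while the median of all genes moved from -0.015 to 0.124. Against that shift the members stood at -0.118, close to the -0.125 found with TMM scaling. With TMM scaling, the respiratory chain and proteasome genes had medians of -0.18 each, further from 0 than the members. Other TOP-type genes were at -0.13, initiation factors outside the TOP class at -0.05 and the mTOR list at -0.04. Mitochondrial ribosomal protein genes were at -0.02 and ribosome biogenesis genes at 0.05.

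T288P+GDF11 against WT compared both a line and the ligand. The median was -0.116 (-0.26 for RPS28 and RPLP2 to 0.49 for RPL39L), with 75 of 79 below and 4 above 0 (51.3% of all genes were above). RPL39L was called higher, as 1 of 79 members (13.8% of all genes were), and 0 were called lower (15.1%), 1 had an unadjusted p under 0.05 (39.7%), and wells were apart for 0 (17.7% of all genes higher and 17.4% lower). RPL6 (0.04), RPS10 (0.04) and RPS27L (0.01) were the other members above 0. With library totals alone the median was 0.068 and 70 members were above 0, while all genes stood at 0.2, so that relative to all genes the members were at -0.132, as against -0.133 with TMM. The median was -0.041 without WT replicate 4, -0.064 without WT replicate 2 and -0.072 without T288P+GDF11 replicate 1. Without M452I replicate 4 and T288P replicate 1, 5 members were called, RPL39L higher and 4 lower, among them RPL14 (-0.23), RPLP2 (-0.26) and RPS26 (-0.23), against 17.6% and 18.7% of all genes.

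**Figure D4:**
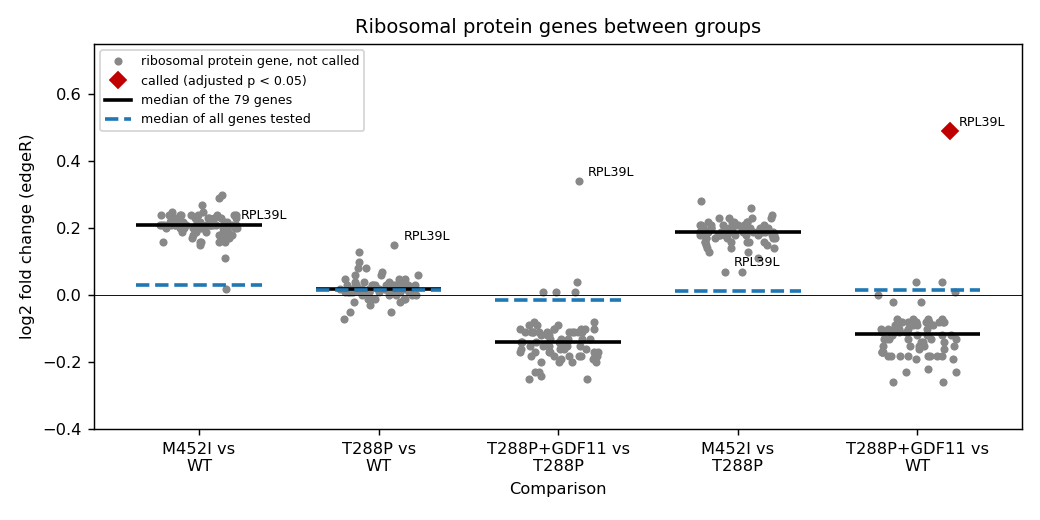
Log2 fold change from edgeR (y axis) of each of the 79 genes (points) in the 5 comparisons (x axis), with the median of the 79 (black line) and of all genes tested (dashed line). RPL39L in T288P+GDF11 against WT (0.49) is the only gene called, and the medians lie between -0.14 and 0.211.

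RPL39L was the member that differed most from the rest. It encodes a paralog of RPL39, a small protein at the wall of the exit tunnel, and is best known from the testis. The gene lies on the minus strand of chromosome 3 (chr3:187120948-187180908, GENCODE 29 on GRCh38), while RPL39 lies on the minus strand of the X chromosome (chrX:119786504-119791643). RPL39L had 7.57, 7.69, 9.99 and 7.93 CPM in WT, 9.72, 8.98, 10.7 and 9.08 in M452I, 8.97, 8.62, 9.36 and 9.85 in T288P, and 11.0, 12.8, 13.5 and 9.2 in T288P+GDF11. Of the T288P+GDF11 wells 3 were above every other well, and replicate 4 lay within the range of the other groups, so the groups overlapped. RPL39L was higher in T288P+GDF11 than in WT by 0.49 log2 units (SE 0.14, adjusted p = 0.0116 by edgeR), and by 0.34 than in T288P (SE 0.13, adjusted p = 0.104). The former call was lost without T288P+GDF11 replicate 3 (0.41, adjusted p = 0.0505), and the latter was gained without replicate 4 (0.44, adjusted p = 0.0449). DESeq2 gave adjusted p-values of 0.00274 and 0.0574. At 9.69 CPM on average RPL39L was the least abundant member, and it was the 1 member for which neither M452I replicate 4 was the lowest nor T288P replicate 1 the highest well of its group.

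RPL39 itself had 579, 672, 568 and 684 CPM in WT, 858, 813, 825 and 436 in M452I, 772, 578, 614 and 610 in T288P, and 532, 660, 622 and 551 in T288P+GDF11. Its fold change between T288P+GDF11 and WT was -0.08 (SE 0.16), in the direction opposite to RPL39L, and it was not called. The difference between the paralogs was not tested. The second pair in the set is RPS27, a zinc-finger protein of the 40S subunit, and RPS27L, known as a p53 target. RPS27 had 444, 517, 424 and 512 CPM in WT, 638, 634, 624 and 303 in M452I, 596, 426, 455 and 435 in T288P, and 376, 457, 447 and 386 in T288P+GDF11. RPS27L had 90.3, 109, 89.9 and 109 CPM in WT, 137, 121, 133 and 69.7 in M452I, 116, 103, 81.0 and 99.8 in T288P, and 95.5, 103, 107 and 95.6 in T288P+GDF11. Both had their lowest M452I value in replicate 4 and their highest T288P value in replicate 1, although the RPS27L window holds no pyrimidine tract at the start.

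**Figure D5:**
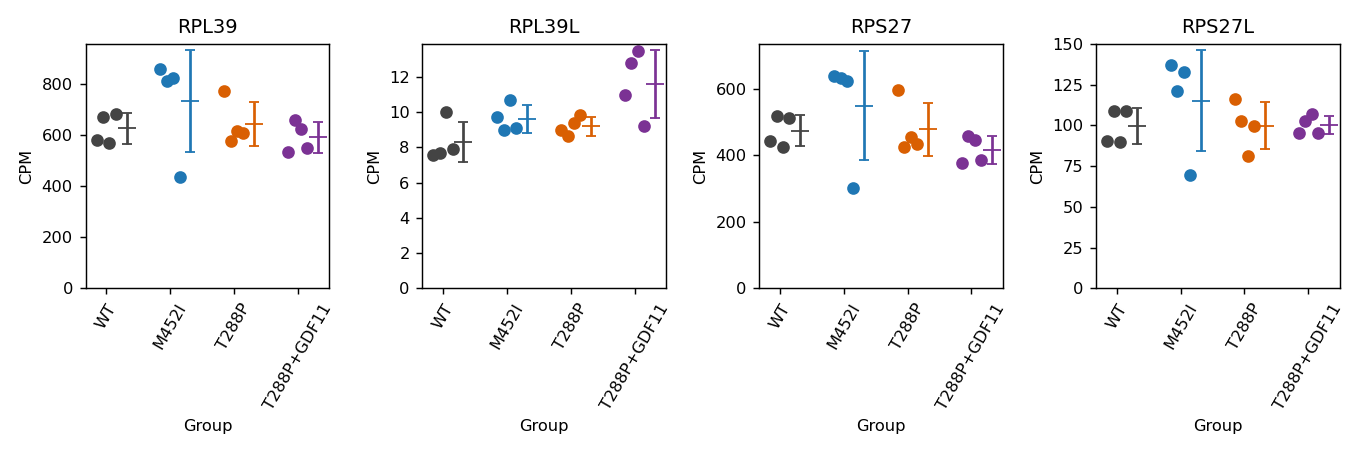
CPM (y axes from 0) of the paralog pairs RPL39 with RPL39L and RPS27 with RPS27L in each well by group (points, with mean ± SD of 4 wells). RPL39, RPS27 and RPS27L drop in M452I replicate 4 (436, 303 and 69.7 CPM), RPL39L does not (9.08 CPM), and RPL39L is highest in 3 T288P+GDF11 wells.

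Of 9 ribosome-related genes outside the symbol rule, 7 were below the other wells in M452I replicate 4, with a median of -0.65 against 0.073 for all genes. FAU, which encodes the 40S protein eS30 fused to a ubiquitin-like domain, was shifted by -1.03 in M452I replicate 4, and RACK1, a scaffold on the 40S head, by -0.65. The paralogs RPL22L1, RPL26L1 and RPL36AL stood at -0.81, -0.65 and -0.86, near their partners RPL22 (-0.74), RPL26 (-0.76) and RPL36A (-0.83). None of these 5 was called in any of the 5 comparisons. Of the 9 genes of this list, 2 were called higher in T288P+GDF11 than in WT (13.8% of all genes were). RPL7L1, which is known for ribosome assembly rather than as a standing component, was at 0.40 (SE 0.09, adjusted p = 0.00368 by edgeR) and did not follow its partner RPL7 in M452I replicate 4 (0.26 against -0.76). RPL17-C18orf32, a readthrough gene that shares 24.8% of the exon bases of RPL17, was at 0.5 (adjusted p = 0.0271 by edgeR) and shifted by -0.09 in M452I replicate 4. RPL36A-HNRNPH2, a readthrough gene that shares 8.4% of the exon bases of RPL36A, was above the other wells there (2.52), at 0.528 to 7.54 CPM over the M452I wells.

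Other genes of ribosome production and translation were called between T288P+GDF11 and WT. Of 30 ribosome biogenesis genes 8 were called higher and 0 lower (median 0.16), with NOP56 (0.69) and NOP58 (0.47), core proteins of the box C/D small nucleolar particles, and LTV1 (0.5), a 40S assembly factor, among them. Of 77 mitochondrial ribosomal protein genes 10 were called higher and 1 lower, and MRPL17 was at 0.46. Of 21 other TOP-type genes 0 were called higher and 4 lower (median -0.1), including EIF3A (-0.49), PABPC1 (-0.31) and EIF4A2 (-0.51). Of 14 genes of the mTOR list 2 were called higher and 3 lower. TSC1, a brake on mTOR, was lower by both comparisons with GDF11 (-0.7 against WT and -0.58 against T288P, adjusted p = 8.34e-05 and 0.00137 by edgeR), LARP1 was at -0.33 against WT (adjusted p = 0.00935 by edgeR), and RPTOR was higher at 0.57. The other gene called higher was DEPTOR (1.35, adjusted p = 0.0367 by edgeR), at means of only 0.884 CPM in WT and 2.28 in T288P+GDF11. The called genes of this list thus do not give 1 direction for mTOR. Of 18 initiation factors outside the TOP class 1 was called higher and 3 lower (median -0.05). Of 27 proteasome genes 0 and 1 were (median -0.17), and of 36 respiratory chain genes 0 and 0 (median -0.19). These counts stand beside 13.8% of all genes called higher and 15.1% lower. Between T288P+GDF11 and T288P, TSC1 was the only gene called in the lists of translation, biogenesis, mTOR, mitochondrial ribosome, respiratory chain and proteasome. In the other 3 comparisons 0 genes of these lists were called, where at most 0.0417% of all genes were.

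Markers also differed with GDF11. CDH1, the epithelial cadherin, was lower in T288P+GDF11 than in T288P (log2 fold change -0.55, adjusted p = 0.000498 by edgeR), while 3 of 5 nuclear or noncoding RNAs and 4 of 13 mitochondrially encoded genes were called lower against WT. The part of these in the members' medians was not tested, and in bulk RNA fewer cells of a kind and less RNA per cell cannot be told apart.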

How the data were processed

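The 16 poly(A) libraries, read from both ends, covered 4 groups of 4 wells. The authors deposited raw whole-number counts for each gene and library. HISAT2, StringTie 2.2.1 and build GRCh38 are named per the submitters' processing notes. How reads were assigned to genes, with which annotation and strand setting, is not given in the sources used here. Of its columns of values 0 were left unused.

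Tests ran in R 4.3.3 with edgeR 4.0.16: TMM scaling, filterByExpr (minimum count 10), the quasi-likelihood F test on all 16 libraries in 1 model without a covariate, and Benjamini-Hochberg adjustment over 16790 genes, with a call at an adjusted p under 0.05. The genes tested held 99.89% to 99.95% of a library's counts. Log2 CPM used a prior count of 2, and an SE was taken as the size of the log2 fold change over the root of its F statistic. A well was set against the mean of the other wells of its group. The code was tested on simulated data. Within groups, no pair of libraries agreed within sampling noise (smallest chi-square per degree of freedom 13.7). With 28.5 to 50.8 M counts per library, counting error is small beside the spread between wells for every member but RPL39L.

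Coordinates and lengths come from GENCODE 29 on GRCh38 and start windows from RefSeq GRCh38.p14. The members, lists and tests were chosen with earlier results of these data known. Genes were named by role (stalk, paralog pairs, roles outside the ribosome) and by value: the 3 highest and 3 lowest members per comparison, by level per kb, by SD and by shift in the 2 outlying wells, and up to 3 called genes per other list. RPL4, EEF1A1, EEF2, TPT1, DEPTOR and the members singled out by pseudogene share, exon overlap, tract length or residual SD were named after their values were seen. A few genes that the rule names are not reported here. Other settings tried were DESeq2 1.42.0, limma-voom (limma 3.58.1), RLE scaling, TMM without the members, library totals, no or a stricter filter (50 counts in 4 libraries), only the 2 groups compared, a replicate block, a member minimum of 1000 counts, and leaving out wells.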

Additional observations from a re-analysis of the deposited data

Results flagged for a closer look

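Wells were set against the other wells of their group by the gap of the highest or lowest well to its neighbour relative to the range of the 4 wells, for the summed share and for 16 genes. In all, 20 of 68 sets of 4 wells had a well past the 95% limit of Dixon's test. M452I replicate 4 and T288P replicate 1 were known beforehand to stand apart, and some of the genes were named by their values. The sets also share wells and are not independent. The count therefore cannot be set against the 1 in 20 that chance gives, and it is only a description. In M452I, 14 sets were past it, each with replicate 4 lowest: the summed share (9.27% of counts), RPLP0 (3490 CPM), RPL12 (2030), RPL4 (4570), RPS6 (3040), RPL41 (1970), RPL11 (800.0), RPS14 (1920), RPS10 (381), RPS29 (168), RPS28 (26.5), RPS27 (303), RPL39 (436) and RPL22 (598). In T288P, replicate 1 was highest past the limit for RPLP0 (5590 CPM), RPL12 (3630), RPL41 (3140) and RPL11 (1240). RPS26 was high in T288P+GDF11 replicate 2 (498 CPM), and RPL39L was high in WT replicate 3 (9.99 CPM).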

How the results depend on the processing

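The members' medians moved by less than the SD between wells of a group (0.237) under each setting but 1. However, that SD is larger than any of these medians in the main fit. Their sign turned in T288P+GDF11 against WT (0.068) and against T288P (0.006) with library totals, and in T288P against WT (-0.08) without both outlying wells and in 3 of the fits that leave out 1 well. The count of members called moved in M452I against WT to 73 and in M452I against T288P to 78 (median 0.46) without both outlying wells, and in T288P+GDF11 against WT to 5 without both, to 2 with library totals, to 3 (1 higher, 2 lower) in a fit of only the 2 groups, and to 0 with a member minimum of 1000 counts, which drops RPL39L. Leaving out 1 well gave 0 to 1 called in T288P+GDF11 against WT and in T288P+GDF11 against T288P, and 0 in the other 3 comparisons; the median of M452I against T288P then ran from 0.121 to 0.357. The shift of M452I replicate 4 was -0.51 with library totals. Of the values of single genes, 709 kept their sign and their side of the threshold, whatever their size, 24 passed the threshold that had not, 1 no longer passed and 22 changed sign; the cause was not tested. RPS26 in M452I against WT was at -0.04 with library totals, -0.03 with limma-voom, -1.7e-05 with only the 2 groups and -0.0014 with the replicate block, and from -0.09 to 0.2 without single wells; in M452I against T288P it was at -0.04 and RPL39L at -0.02 with library totals, and RPS26 ran from -0.05 to 0.31 without wells. In T288P+GDF11 against T288P, leaving out wells gave RPL6 -0.02 to 0.09, RPS10 -0.04 to 0.2 and RPS28 -0.37 to 0.002. Against WT, it gave RPS10 -0.02 to 0.13, and in T288P against WT RPL10A -0.19 to 0.01 and RPS26 -0.11 to 0.02. Equal replicate numbers did not pair the wells: over 24 same-numbered pairs the correlation of deviations ran from -0.197 to 0.174, with 4 over 0.1. With the replicate number as a block, the medians were 0.189, 0.012, -0.139, 0.177 and -0.123 for M452I against WT, T288P against WT, T288P+GDF11 against T288P, M452I against T288P and T288P+GDF11 against WT, and the calls were unchanged at 0, 0, 0, 0 and 1. Depth limits RPL39L most, at 244 counts in its lowest library.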
